A study of Mus musculus with 35 samples.

Results

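Livers of old sham-operated mice were compared by the clock time at which they were taken, in a study of liver regeneration. The 2 arrays at 38 h after sham surgery were set against the 4 arrays at 24 h (2) and 48 h (2), chosen by the times that the labels give. They are 6 of the 35 arrays in the series. The 24 and 48 h livers lie a whole day apart and so share a clock time, while the 38 h livers are shifted by 14 h from the 24 h livers. The labels give no hour of surgery or collection, so this holds only if operations were done at like hours.

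All mice were male CB6F1 hybrids, and 5 µg of whole-liver RNA went onto each Affymetrix array. The old mice were 25 to 27 months old and came from the National Institute on Aging, and in shams the liver was handled under avertin and isoflurane and not resected. Young shams of 5 to 6 months, from Jackson (1 array at 38 h, 2 each at 24 and 48 h), give the same contrast, with age and supplier impossible to tell apart. Livers after removal of 70% of the organ by partial hepatectomy (PH, 3 arrays for each age and time) give it during regrowth. Untreated livers at 0 h (3 arrays per age) entered the fit for the spread between arrays. Whether replicates came from different animals is not stated, so the p-values reflect only the spread among these samples, which may be technical.

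The liver clock is a transcription loop. The ARNTL protein (BMAL1), paired with CLOCK or NPAS2, switches on the Per and Cry genes, whose products shut that pair off, and the Nr1d1 and Nr1d2 genes, whose products (REV-ERB alpha and beta) repress Arntl, Npas2, Nfil3 and Cry1. DBP, TEF and HLF activate, and NFIL3 represses, genes that carry a D-box, and the loop drives daily rhythms of sugar, fat and bile acid metabolism together with feeding.

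The promoters of 3 clock genes that lay high at 38 h are shown because they hold letters through which this loop is known to act. Each window runs from 250 bases before to 50 after the RefSeq gene start in build GRCm38.p6, on the gene's strand. Capitals mark the ROR element TAGGTCA, or its reverse complement TGACCTA, in Arntl (chr7:113207261-113207560, plus strand) and Nfil3 (chr13:52980990-52981289, minus strand). In Cry1 (chr10:85185005-85185304, minus strand) they mark the E-box CACGTG.
Arntl: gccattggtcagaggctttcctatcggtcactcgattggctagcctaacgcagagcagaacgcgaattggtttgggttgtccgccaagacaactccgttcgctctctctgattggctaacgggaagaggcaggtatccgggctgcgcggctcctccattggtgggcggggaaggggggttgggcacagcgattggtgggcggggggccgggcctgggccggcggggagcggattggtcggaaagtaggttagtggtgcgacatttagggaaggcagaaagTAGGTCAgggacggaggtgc
Nfil3: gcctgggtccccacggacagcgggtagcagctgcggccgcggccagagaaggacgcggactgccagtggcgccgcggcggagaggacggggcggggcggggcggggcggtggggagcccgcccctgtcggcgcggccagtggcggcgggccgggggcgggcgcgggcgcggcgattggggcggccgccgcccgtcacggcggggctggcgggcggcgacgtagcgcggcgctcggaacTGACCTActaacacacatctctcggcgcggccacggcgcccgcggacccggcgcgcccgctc
Cry1: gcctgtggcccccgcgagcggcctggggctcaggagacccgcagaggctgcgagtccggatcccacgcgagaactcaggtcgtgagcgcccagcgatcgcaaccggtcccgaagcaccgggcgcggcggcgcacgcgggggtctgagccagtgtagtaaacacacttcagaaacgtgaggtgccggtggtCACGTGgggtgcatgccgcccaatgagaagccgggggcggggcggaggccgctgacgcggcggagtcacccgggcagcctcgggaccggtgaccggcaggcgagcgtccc
On both strands together, TAGGTCA or TGGGTCA stood in 6.45% of 32851 windows, CACGTG in 7.15% and the D-box TTANGTAA in 2.32%. Of the 20 clock genes matched to 29 windows, 2 held the ROR element, 5 the E-box and 3 the D-box, and no clock window held more than 1 kind of these motifs. The Ciart window held 3 E-boxes and a Per3 window 2 D-boxes. Beside Cry1, the E-box stood in windows of Per1, Tef, Ciart and Bhlhe41, whose groups overlapped on the brightest probe set. In the Arntl window shown, the ROR element begins 30 bases after the gene start. None of the 3 motifs stood in the other Arntl window or in the windows of Npas2, Dbp, Nr1d1 or Nr1d2. A match describes the sequence and says nothing of binding.

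Some arrays stood apart in markers of other tissues. Replicate 1 of the old shams at 38 h had high skeletal muscle genes, with the fast troponin Tnnc2 at 10.33 and 6.44 at 38 h, against 6.21 to 6.61 at 24 and 48 h. Replicate 2 at 24 h had high fat and matrix genes, with the fat hormone Adipoq at 6.34 and 5.03 at 38 h, against 5.15 and 8.48 at 24 h and 5.30 and 5.33 at 48 h, and the collagen Col3a1 at 9.33 and 9.71 at 38 h, against 9.33 and 11.63 at 24 h and 8.95 and 9.93 at 48 h. The antibody chain Ighm was at 11.13 and 11.34 at 38 h, against 10.97 and 12.98 at 24 h and 10.92 and 13.70 at 48 h, so that 1 array at 24 h and 1 at 48 h were high. The log2 of the summed signal of 10 measured hepatocyte markers lay at 17.80 and 17.81 at 38 h, against 17.79 to 17.81 at 24 and 48 h. Results are therefore also given without 24 h replicate 2, which leaves 1 array at 24 h. They are given without 38 h replicate 1, which leaves 1 array at 38 h, and without both, which leaves 1 at each of these times. With 1 array at 38 h, a call compares that array with the others and cannot tell the time from the array. In those settings, rose, fell and passed describe that array only.

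**Figure D1:**
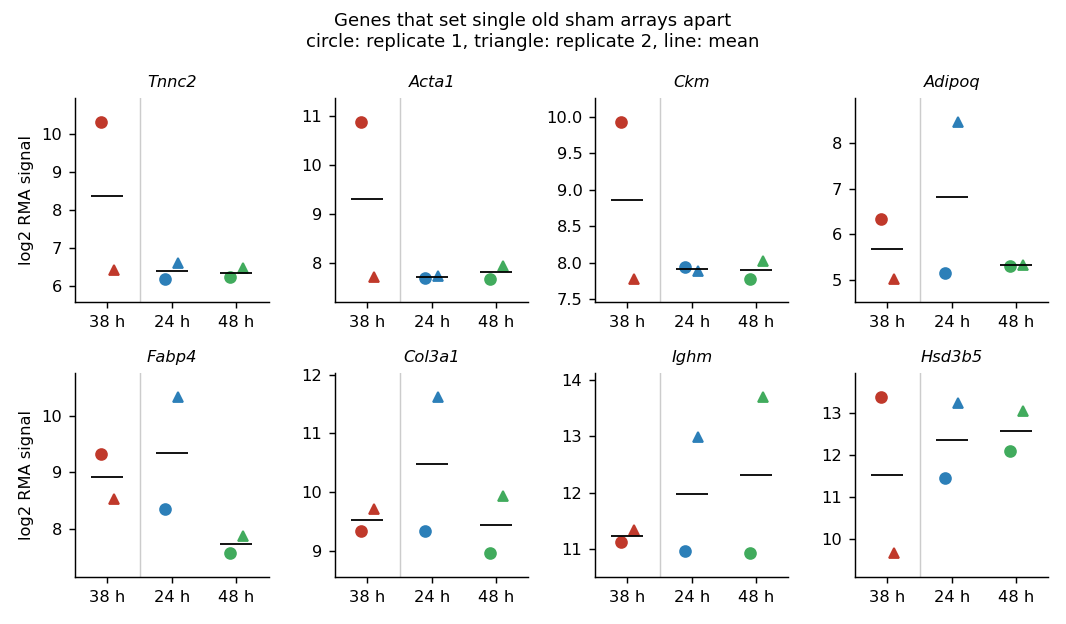
Log2 RMA signal of 8 genes in each old sham array, 38 h left of the grey line and 24 and 48 h right of it (circle replicate 1, triangle replicate 2, line the mean). Tnnc2 lies at 10.33 in 38 h replicate 1 and Adipoq at 8.48 in 24 h replicate 2, each far above the other arrays.

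Across 34945 probe sets with 1 gene symbol, limma's moderated test with Benjamini-Hochberg adjustment called 1 (0.00286%), while 4343 had an unadjusted p under 0.05. That probe set reports Ppp1r1b (DARPP-32, an inhibitor of protein phosphatase 1). Its log2 signal was 8.70 and 8.80 at 38 h, against 7.69 and 7.75 at 24 h and 8.15 and 8.38 at 48 h, and both 38 h arrays lay above the other 4. It rose by 0.75 ± 0.081 on the log2 scale (adjusted p = 0.00737); here, and for every difference, ± gives the SE of the fit. Against 24 h alone it passed (1.03 ± 0.093, adjusted p = 0.000925) and against 48 h alone it did not (0.48 ± 0.093, adjusted p = 0.117), and these comparisons share the 38 h arrays. It also passed without 24 h replicate 2, without 38 h replicate 1 and without both (adjusted p = 0.00276, 0.00649 and 0.00708). Of 18 alternatives, 2 ended the call: the fit on only the arrays compared (adjusted p = 0.229) and 24 and 48 h taken as 1 group (adjusted p = 0.0852).

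Taking each gene by its brightest probe set, both 38 h arrays lay above all 4 others for 10.3% of 18193 genes and below them for 8.85%. These shares are the background for each count of genes without overlap. Without 24 h replicate 2, 118 genes (0.649%) rose and 58 (0.319%) fell. Without 38 h replicate 1, 70 (0.385%) rose and 28 (0.154%) fell, and without both 126 (0.693%) rose and 46 (0.253%) fell.

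The core clock genes Arntl, Npas2, Nfil3 and Cry1 lay high at 38 h, and Dbp, Nr1d1 and Nr1d2 lay low, in both arrays. None of the 23 measured members (of 25 listed) passed with all arrays. At an unadjusted p under 0.05, 4 were higher and 3 lower, where 6.66% and 4.70% of all genes were. Dbp, the D-box activator, was at 6.55 and 7.29 at 38 h, against 11.12 and 10.27 at 24 h and 9.06 and 11.61 at 48 h. Both 38 h livers lay below all others, with a log2 difference of -3.59 ± 0.77, adjusted p = 0.108, which is 12.1-fold lower. A second Dbp probe set differed by -2.04 ± 0.73.

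The REV-ERB genes showed the same order. Nr1d2 was at 10.18 and 10.17 at 38 h, against 11.30 and 11.24 at 24 h and 10.93 and 11.47 at 48 h (-1.06 ± 0.17, adjusted p = 0.0827). Nr1d1 was at 8.98 and 9.37 at 38 h, against 10.24 and 9.95 at 24 h and 9.93 and 10.48 at 48 h (-0.98 ± 0.19, adjusted p = 0.0919). The 38 h arrays of both lay below every 24 and 48 h array, and a dimmer Nr1d2 probe set differed by -1.27 ± 0.22.

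Genes that REV-ERB proteins repress ran the opposite way. Arntl was at 9.44 and 9.40 at 38 h, against 8.34 and 8.36 at 24 h and 8.85 and 7.71 at 48 h (1.11 ± 0.40, adjusted p = 0.279). Npas2, the alternative partner of ARNTL, was at 7.69 and 8.21 at 38 h, against 6.33 and 6.53 at 24 h and 6.85 and 6.27 at 48 h (1.45 ± 0.43, adjusted p = 0.195). Both 38 h arrays lay above the other 4 for each gene, and within 48 h the Arntl arrays lay further apart than within 38 h. The dimmer probe set of Npas2 differed by 0.83 ± 0.18, while that of Arntl overlapped (-0.11 ± 0.11).

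Nfil3, the D-box repressor, was at 10.81 and 10.76 at 38 h, against 9.54 and 9.89 at 24 h and 10.22 and 9.19 at 48 h (1.08 ± 0.38, adjusted p = 0.257). Cry1, a repressor of the ARNTL pair, was at 7.52 and 7.02 at 38 h, against 5.26 and 6.82 at 24 h and 6.21 and 5.63 at 48 h (1.29 ± 0.34, adjusted p = 0.161). The 38 h arrays were the highest for both. The nearest array for Cry1 was 24 h replicate 2, which carried the fat markers, and their part in it was not tested.

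Most other members overlapped between the groups on their brightest probe set. The repressor Per1 was at 8.21 and 8.62 at 38 h, against 8.71 and 8.79 at 24 h and 8.44 and 9.29 at 48 h (-0.40 ± 0.27), and Per2 differed by -0.20 ± 0.16 and Per3 by -0.33 ± 0.28. A dimmer Per2 probe set was lower without overlap (-0.28 ± 0.10). Clock differed by 0.05 ± 0.25 and Cry2 by -0.16 ± 0.18. Of the D-box activators, Tef differed by -0.34 ± 0.22 and Hlf by -0.10 ± 0.092. The 2 dimmer Tef probe sets were lower without overlap (-0.72 ± 0.23 and -0.41 ± 0.13). Bhlhe40, a repressor at E-boxes, was at 10.37 and 10.28 at 38 h, against 10.94 and 10.56 at 24 h and 10.49 and 10.81 at 48 h (-0.38 ± 0.22, adjusted p = 0.514), and the kinase Csnk1d differed by -0.17 ± 0.12; both were lower without overlap, though the 4 dimmer Csnk1d probe sets overlapped. These made the count without overlap 4 higher and 5 lower. The ROR receptors, which compete with REV-ERB proteins, overlapped (Rora 0.32 ± 0.15, Rorb -0.15 ± 0.10), and probe sets of Rora disagreed in direction. Bhlhe41 (0.11 ± 0.13), Ciart (-0.10 ± 0.23), the kinase Csnk1e (0.15 ± 0.15), Fbxl21 (0.06 ± 0.12) and Timeless (-0.11 ± 0.12) overlapped too.

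**Figure D2:**
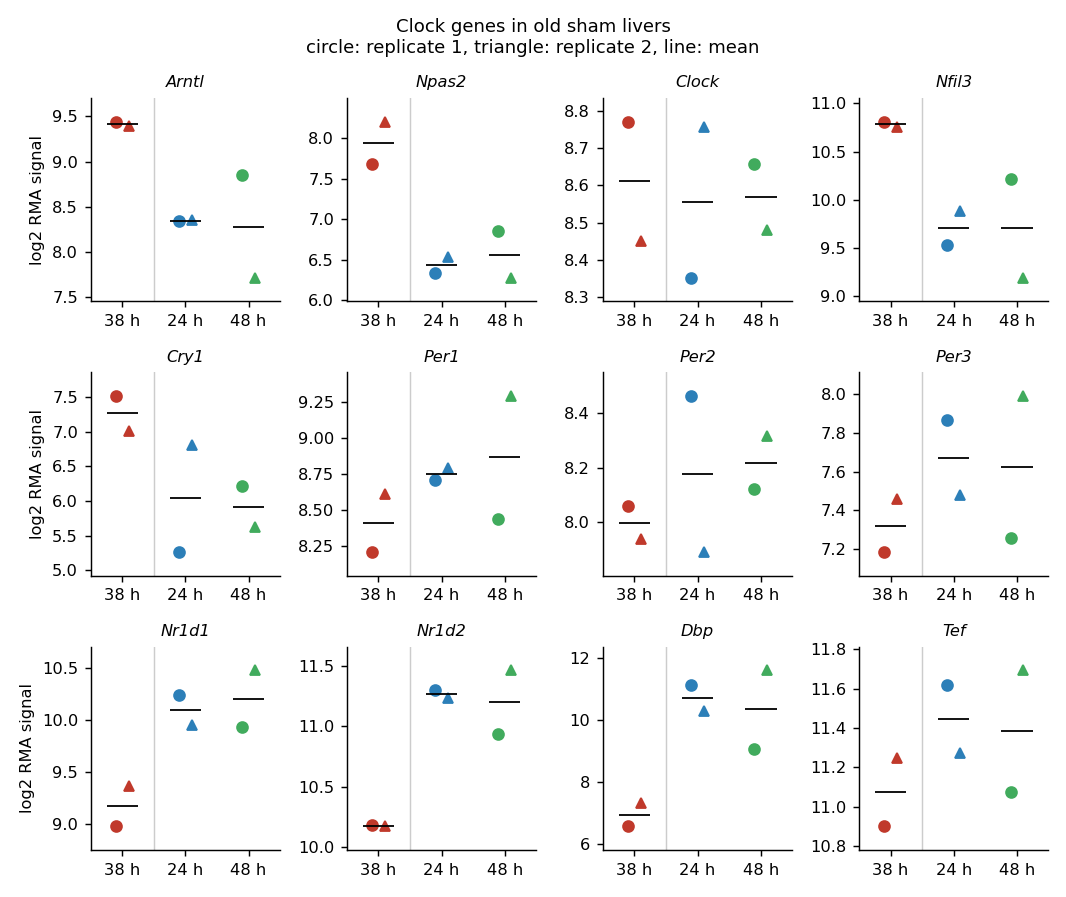
Log2 RMA signal of 12 clock genes in each old sham array, 38 h left of the grey line and 24 and 48 h right of it (circle replicate 1, triangle replicate 2, line the mean). Dbp lies at 6.55 and 7.29 at 38 h, against 9.06 to 11.61 at 24 and 48 h, and Nfil3 at 10.81 and 10.76 at 38 h, against 9.19 to 10.22 at 24 and 48 h.

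Between the 48 and 24 h livers, a day apart, Dbp differed by -0.36 ± 0.89, Arntl by -0.07 ± 0.47, Nr1d1 by 0.11 ± 0.22 and Npas2 by 0.13 ± 0.50. The difference of 38 h from each side, with the 38 h arrays shared, was -3.77 and -3.41 for Dbp, 1.07 and 1.14 for Arntl and -0.92 and -1.03 for Nr1d1 (24 h, then 48 h). limma called 0 of 34945 probe sets between 48 and 24 h (0.00%; 2938 at an unadjusted p under 0.05) and 0 between 38 and 48 h (0.00%; 5083). It called 4 between 38 and 24 h (0.0114%). These included Inmt, a methyltransferase of amines, at 13.02 and 13.04 at 38 h, against 10.51 and 11.54 at 24 h and 12.60 and 12.91 at 48 h (2.01 ± 0.25, adjusted p = 0.0206 against 24 h), where 48 h lay near 38 h.

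Without 24 h replicate 2, 4 of the 23 clock members passed. Cry1 rose by 1.68 ± 0.24 on the log2 scale (adjusted p = 0.0064), Nr1d2 fell by 1.07 ± 0.19 on the log2 scale (adjusted p = 0.0149), Nr1d1 fell by 1.05 ± 0.21 on the log2 scale (adjusted p = 0.0298) and Dbp fell by 3.80 ± 0.85 on the log2 scale (adjusted p = 0.0463). Without 38 h replicate 1, none passed, with Nr1d2 at -1.06 ± 0.22, adjusted p = 0.0571. Without both, Cry1 rose by 1.43 ± 0.29 on the log2 scale (adjusted p = 0.04) and no other member passed. Of all settings run, the one without 24 h replicate 2 gave the lowest adjusted p for Cry1, Nr1d2, Nr1d1 and Dbp alike. Over the settings, Cry1 differed by 0.90 to 1.68, Nr1d2 by -1.19 to -0.92, Nr1d1 by -1.17 to -0.78 and Dbp by -4.23 to -2.96. Dbp ranged from 8.09 to 11.20 in the 3 untreated old livers and Arntl from 8.55 to 10.21, and those arrays are part of the spread behind each SE. The clock members are all named. A fixed rule also took Ppp1r1b, the 2 brightest members of lists in which none passed and the largest called changes of the other contrasts, some of which are given here. All other genes were chosen after their values were seen.

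The list of rhythmic liver output genes had 7 of 26 members higher and 1 lower without overlap, and 0 passed. Lonrf3, a RING finger gene, was at 8.64 and 8.60 at 38 h, against 7.81 and 8.003 at 24 h and 8.05 and 7.35 at 48 h (0.82 ± 0.16, adjusted p = 0.0906). The nuclear receptor Ppard was at 8.21 and 8.70 at 38 h, against 7.86 and 7.65 at 24 h and 7.86 and 7.85 at 48 h (0.65 ± 0.15, adjusted p = 0.134). Both 38 h arrays lay above the other 4 for each. The brightest members, the heme synthesis enzyme Alas1 (-0.08 ± 0.41) and the elongase Elovl3 (0.43 ± 0.42), overlapped. Cirbp, an RNA-binding protein induced by cold, was at 9.41 and 9.82 at 38 h, against 8.69 and 8.62 at 24 h and 8.76 and 9.05 at 48 h (0.83 ± 0.22, adjusted p = 0.167).

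Glucose handling genes were higher without overlap in 6 of 13 and lower in 1, and 0 passed. Pklr, the liver pyruvate kinase, was at 10.57 and 11.78 at 38 h, against 9.90 and 10.08 at 24 h and 9.87 and 10.17 at 48 h (1.17 ± 0.27, adjusted p = 0.127). Khk, which phosphorylates fructose, was at 12.52 and 12.996 at 38 h, against 12.09 and 12.22 at 24 h and 12.26 and 12.35 at 48 h (0.53 ± 0.11, adjusted p = 0.104). Replicate 2 was the higher 38 h array for both. Pfkfb3, which makes the activator of phosphofructokinase, was at 7.44 and 6.86 at 38 h, against 8.71 and 9.14 at 24 h and 7.79 and 8.39 at 48 h (-1.36 ± 0.27, adjusted p = 0.0919), the lowest at 38 h. Ugp2, the other brightest member beside Khk, differed by -0.15 ± 0.11. Without 38 h replicate 1, Pklr rose by 1.77 ± 0.25 on the log2 scale (adjusted p = 0.00856) and Khk by 0.77 ± 0.11 on the log2 scale (adjusted p = 0.0101). Khk also passed without 24 h replicate 2 (adjusted p = 0.0423) and Pklr did not (0.0675), and without both arrays the 2 genes passed (0.00829 and 0.00852).

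Genes of gluconeogenesis and fasting were higher without overlap in 4 of 14 and lower in 1, and 0 passed. The log2 of the list's summed signal was 16.11 in replicate 1 and 16.37 in replicate 2 at 38 h, against 16.04 to 16.16 at 24 and 48 h. Its mean log2 level was 11.27 and 11.65 at 38 h, against 11.11 to 11.20. Replicate 1 lay within the range by the sum and above it by the mean. Igfbp1, a binding protein of insulin-like growth factors that fasting induces, was at 10.15 and 12.22 at 38 h, against 9.26 and 8.96 at 24 h and 8.78 and 8.41 at 48 h (2.33 ± 0.74, adjusted p = 0.215). Its 38 h arrays were the highest but lay far from each other. G6pc, the glucose-6-phosphatase, was at 12.32 and 12.58 at 38 h, against 11.01 and 11.93 at 24 h and 11.80 and 11.58 at 48 h (0.87 ± 0.25, adjusted p = 0.183), and without 24 h replicate 2 it rose by 1.10 ± 0.23 on the log2 scale (adjusted p = 0.0332). It did not pass without 38 h replicate 1 (adjusted p = 0.219) or without both (0.0655), where the aspartate aminotransferase Got1 was the 1 member that passed (0.0433 and 0.0489). Pck1, which commits oxaloacetate to glucose, was at 13.34 and 12.9999 at 38 h, against 13.49 and 13.62 at 24 h and 13.47 and 13.52 at 48 h (-0.36 ± 0.12, adjusted p = 0.229), the lower one. The brightest members were Fbp1 (0.18 ± 0.072) and Tat (-0.08 ± 0.11).

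Targets of PPAR alpha, a fatty acid receptor, were higher without overlap in 6 of 23 and lower in 1, and 0 passed. The 38 h arrays lay on opposite sides for the list as a whole. The log2 of its summed signal was 16.86 in replicate 1 and 16.41 in replicate 2, against 16.54 to 16.65 at 24 and 48 h. The list's median difference was 0.07 with all arrays and -0.12 without 38 h replicate 1. Pdk4, which blocks pyruvate oxidation, was at 8.66 and 9.36 at 38 h, against 7.51 and 6.64 at 24 h and 7.64 and 6.43 at 48 h (1.95 ± 0.47, adjusted p = 0.139). The thioesterase Acot3 was at 9.06 and 9.39 at 38 h, against 8.17 and 7.78 at 24 h and 7.94 and 8.08 at 48 h (1.23 ± 0.21, adjusted p = 0.0827), and Acot1 was at 9.07 and 8.02 at 38 h, against 6.93 and 7.59 at 24 h and 7.46 and 7.09 at 48 h (1.28 ± 0.29, adjusted p = 0.12). Both 38 h arrays lay above the other 4 for all 3. Without 24 h replicate 2, Acot3 rose by 1.13 ± 0.23 on the log2 scale (adjusted p = 0.0296) and Acot1 by 1.44 ± 0.30 on the log2 scale (adjusted p = 0.0357). Without 38 h replicate 1, Acot3 passed (adjusted p = 0.0444) and Acot1 did not (0.75 ± 0.31, adjusted p = 0.356). Without both, no member passed higher (Acot3 adjusted p = 0.0515, Acot1 0.181), and the pantetheinase Vnn1 fell by 1.92 ± 0.36 on the log2 scale (adjusted p = 0.0272). The brightest members, Fabp1 (-0.16 ± 0.11) and Plin2 (-0.16 ± 0.22), lay lower in replicate 2 at 38 h than in any other array.

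Fatty acid synthesis genes had a positive difference in 18 of 18 members, with a median of 0.34 against -0.00 over all genes. Other lists were one-sided too, with a positive difference in 19 of 20 cholesterol synthesis, 17 of 19 amino acid catabolism and 2 of 21 ER stress genes. The fatty acid synthesis genes were higher without overlap in 4, and 0 passed. The mean log2 level of the list was 11.47 in replicate 1 and 12.32 in replicate 2 at 38 h, against 11.17 to 11.63 at 24 and 48 h, so that replicate 1 lay within the range of those arrays. The median was 0.62 without 38 h replicate 1, 0.30 without 24 h replicate 2 and 0.51 without both. Elovl5 was at 13.53 and 13.65 at 38 h, against 13.36 and 13.18 at 24 h and 13.33 and 13.28 at 48 h (0.31 ± 0.12), and Scd1 overlapped (0.21 ± 0.22). Fasn, the fatty acid synthase, was at 11.55 and 13.10 at 38 h, against 12.04 and 11.10 at 24 h and 11.58 and 11.61 at 48 h (0.74 ± 0.34), and Elovl6 was at 10.12 and 11.89 at 38 h, against 10.51 and 9.82 at 24 h and 9.997 and 10.12 at 48 h (0.89 ± 0.35). In both, replicate 2 at 38 h was high and replicate 1 was not. Without replicate 1, Acly, Acaca, Acacb and Elovl6 passed, Elovl6 rising by 1.78 ± 0.26 on the log2 scale (adjusted p = 0.011), and without both these 4 and Fasn passed. No member did without 24 h replicate 2. Replicate 2 at 38 h had the lowest Hsd3b5, a male-biased steroid enzyme, at 13.39 and 9.65 at 38 h, against 11.45 and 13.24 at 24 h and 12.09 and 13.03 at 48 h. Hsd3b5 belongs to a list of 15 measured genes of the male growth hormone pattern. The mean log2 level of that list was 11.31 and 10.40 at 38 h, against 10.76 to 11.24 at 24 and 48 h. The 38 h arrays lay on opposite sides of that range.

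**Figure D3:**
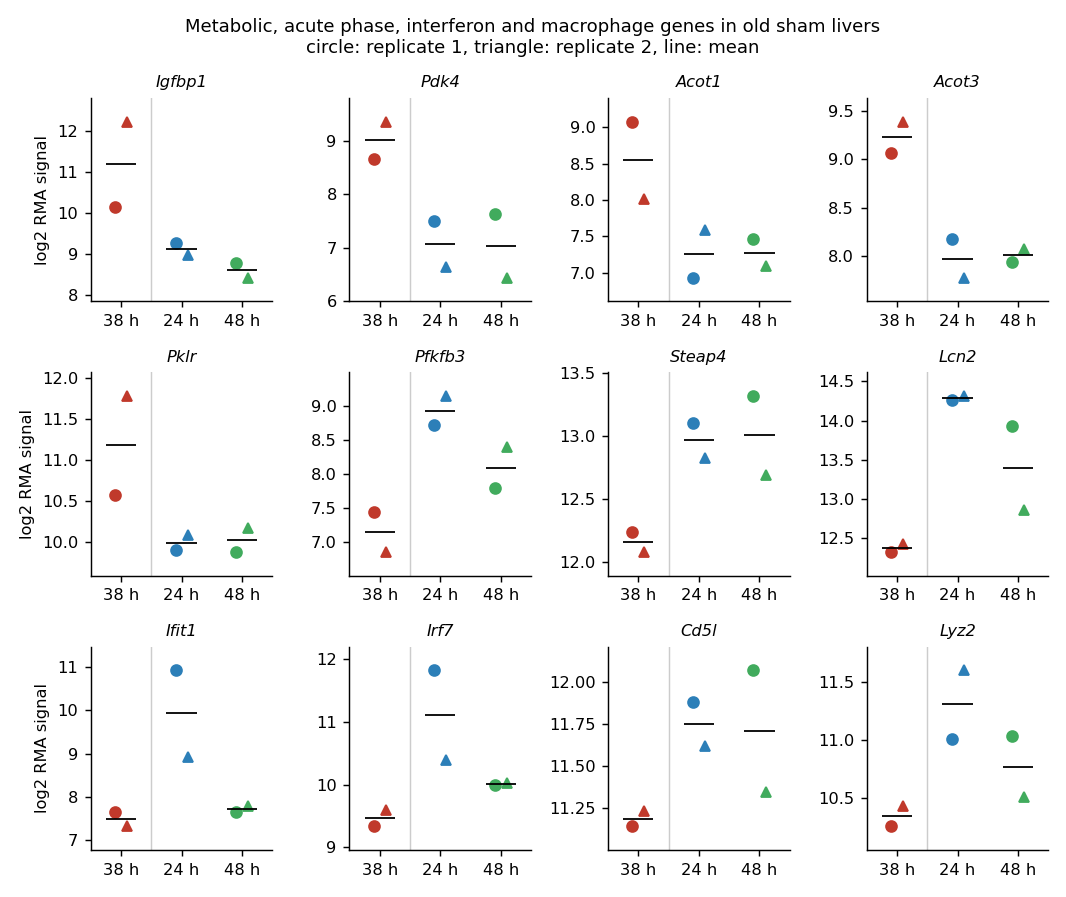
Log2 RMA signal of 12 metabolic, acute phase, interferon and macrophage genes in each old sham array, 38 h left of the grey line and 24 and 48 h right of it (circle replicate 1, triangle replicate 2, line the mean). Pdk4 lies at 8.66 and 9.36 at 38 h, against 6.43 to 7.64 at 24 and 48 h, and Lcn2 at 12.32 and 12.43 at 38 h, against 12.86 to 14.32 at 24 and 48 h.

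Acute phase genes, which hepatocytes express in inflammation, were lower without overlap in 12 of 23 and higher in 0, with a median difference of -0.25. None passed, and 6 were lower at an unadjusted p under 0.05. Steap4, an iron reductase, was at 12.24 and 12.07 at 38 h, against 13.10 and 12.82 at 24 h and 13.32 and 12.69 at 48 h (-0.83 ± 0.17, adjusted p = 0.0956). Lcn2, which binds bacterial iron carriers, was at 12.32 and 12.43 at 38 h, against 14.27 and 14.32 at 24 h and 13.93 and 12.86 at 48 h (-1.47 ± 0.63, adjusted p = 0.36). The 38 h arrays were the lowest for both. Saa4, a serum amyloid A, was at 13.08 and 12.50 at 38 h, against 13.28 and 13.37 at 24 h and 13.75 and 13.42 at 48 h (-0.66 ± 0.15, adjusted p = 0.114). The brightest members were haptoglobin, Hp (-0.14 ± 0.079), and a fibrinogen chain, Fgb (-0.04 ± 0.075). Without 24 h replicate 2, Steap4 fell by 0.90 ± 0.18 on the log2 scale (adjusted p = 0.0321). It did not pass without 38 h replicate 1 (adjusted p = 0.0957) or without both (0.069), where Saa4 was the 1 member that passed.

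Macrophage and Kupffer cell markers were lower without overlap in 7 of 12 and higher in 0, with a median of -0.51, and 0 reached an unadjusted p under 0.05. Lyz2, lysozyme, was at 10.26 and 10.43 at 38 h, against 11.01 and 11.60 at 24 h and 11.03 and 10.51 at 48 h (-0.69 ± 0.47). Cd5l, secreted by Kupffer cells, was at 11.14 and 11.23 at 38 h, against 11.88 and 11.62 at 24 h and 12.07 and 11.34 at 48 h (-0.54 ± 0.35), and Csf1r, the growth factor receptor of macrophages, overlapped (-0.24 ± 0.34). The log2 of the summed signal of the 12 markers was 13.68 and 13.84 at 38 h, against 13.78 to 14.37 at 24 and 48 h. In whole-liver RNA, fewer cells of a type and less RNA per cell cannot be told apart, and the part of these markers in the acute phase and interferon values was not tested.

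Interferon-induced genes were lower without overlap in 9 of 28 and higher in 0, with a median of -0.43, and 0 passed. The antiviral gene Ifit1 was at 7.64 and 7.31 at 38 h, against 10.94 and 8.93 at 24 h and 7.65 and 7.79 at 48 h (-1.35 ± 0.45, adjusted p = 0.229). Irf7, a regulator of interferon genes, was at 9.33 and 9.59 at 38 h, against 11.83 and 10.39 at 24 h and 9.9998 and 10.03 at 48 h (-1.10 ± 0.39, adjusted p = 0.256). In both, 24 h replicate 1 was the highest. The 48 h arrays of Ifit1 lay close to those at 38 h, while those of Irf7 lay between the 38 h arrays and 24 h replicate 2. The list's median was -0.74 against 24 h, -0.07 against 48 h and -0.71 between 48 and 24 h. The brightest members were Iigp1 (-0.53 ± 0.17) and Bst2 (-0.34 ± 0.16). Without 24 h replicate 2, Ifit1 fell by 1.85 ± 0.34 on the log2 scale (adjusted p = 0.0203), and Mx2 and Usp18 passed as well. That setting leaves 24 h replicate 1, the highest array for Ifit1, as the only one at 24 h. Without 38 h replicate 1, no member passed (Ifit1 adjusted p = 0.315, Usp18 0.439), and without both Ifit1 alone did (0.0488).

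Counted without overlap, ribosome biogenesis genes were higher in 7 of 26 and lower in 1, mitosis genes higher in 3 and lower in 7 of 33, and S phase genes higher in 1 and lower in 5 of 30, with 0 passing. A positive difference, overlapping or not, was found for 18, 9 and 11 members of these lists in the same order. The 8 muscle markers had a median difference of 0.81. The log2 of their summed signal was 12.30 in 38 h replicate 1 and 9.86 in the other, against 9.75 to 9.99 at 24 and 48 h. Acta1, skeletal muscle actin, was at 10.88 and 7.71 at 38 h, against 7.68 to 7.93 at 24 and 48 h.

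**Figure D4:**
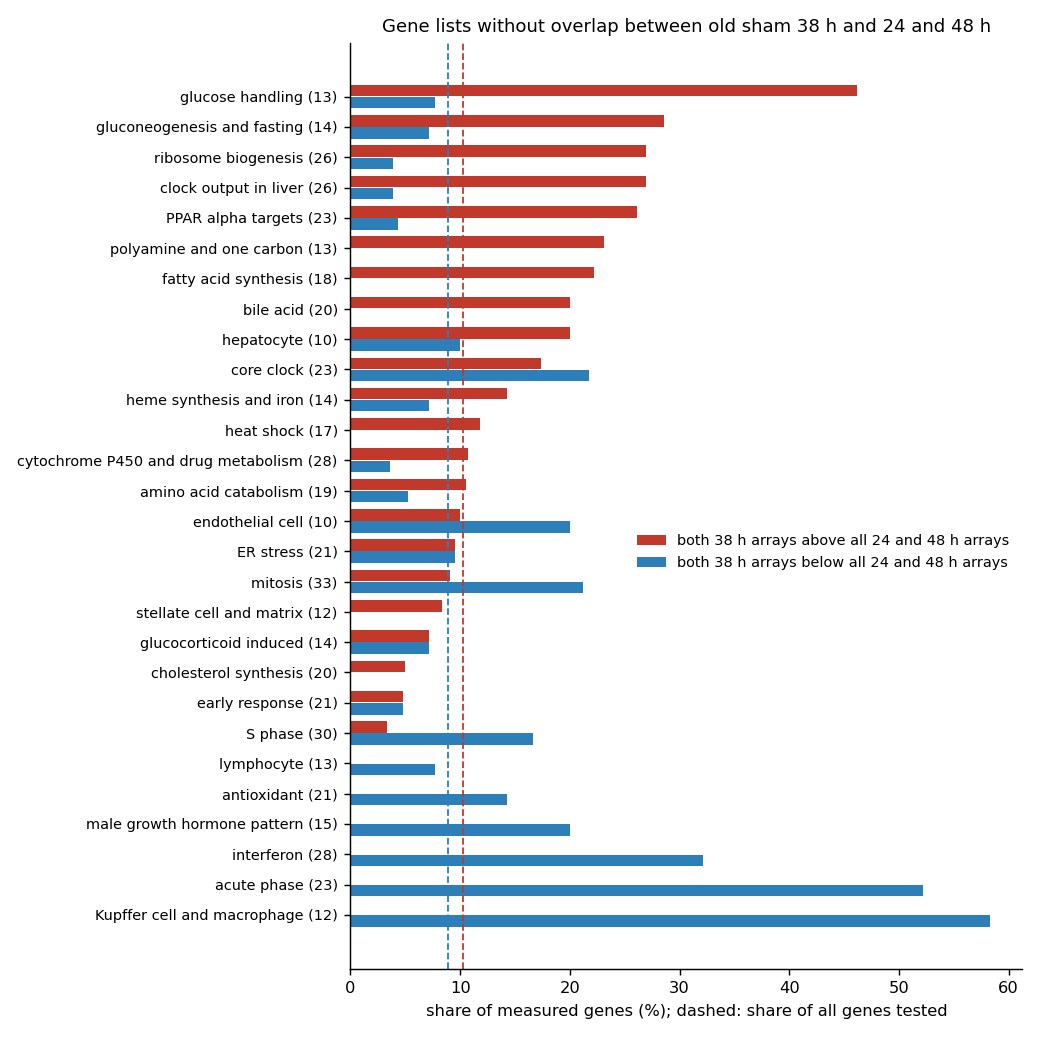
Share of each list's measured genes (number in brackets) with both 38 h arrays above (red) or below (blue) all 24 and 48 h arrays in old shams. Dashed lines mark the same shares over all 18193 genes, 10.3% above and 8.85% below; glucose handling reaches 46.2% above and acute phase 52.2% below.

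In young shams Nr1d1 and Nr1d2 were low at 38 h, on 1 array whose spread is taken from the other groups. The calls in young shams therefore compare that array with the other 4 and cannot tell the time from the array. It stood apart in Dmbt1, a mucosal scavenger glycoprotein, at 11.15, against 5.65 to 5.98 at 24 and 48 h (5.33 ± 1.25, adjusted p = 0.0577). Nr1d1 was at 7.47 at 38 h, against 9.85 and 9.98 at 24 h and 9.98 and 10.26 at 48 h, with a difference of -2.55 ± 0.25 on the log2 scale (adjusted p = 0.000449). Nr1d2 was at 8.83 at 38 h, against 10.69 and 10.77 at 24 h and 11.003 and 10.61 at 48 h, with a difference of -1.94 ± 0.22 on the log2 scale (adjusted p = 0.00121). Dbp was at 6.97 at 38 h, against 8.89 and 10.31 at 24 h and 10.11 and 9.45 at 48 h (-2.72 ± 1.00, adjusted p = 0.197). The 38 h array lay below the other 4 for these 3 genes, and both calls passed in each of 13 alternatives. Cry1 was at 7.68 at 38 h, against 6.78 and 6.48 at 24 h and 6.41 and 6.14 at 48 h (1.22 ± 0.43, adjusted p = 0.182), and Arntl was at 9.25 at 38 h, against 8.999 and 8.39 at 24 h and 8.62 and 8.78 at 48 h (0.55 ± 0.52, adjusted p = 0.682). Npas2 overlapped, at 6.95 at 38 h, against 7.07 and 6.69 at 24 h and 6.71 and 6.97 at 48 h. limma called 387 probe sets (1.11%), and per gene 49 (0.269%) were higher and 101 (0.555%) lower on that array. Ppp1r1b was among the higher ones, at 8.67 at 38 h, against 7.80 and 7.76 at 24 h and 8.32 and 8.28 at 48 h (0.63 ± 0.10, adjusted p = 0.0186).

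Several list medians had the opposite sign on the young array. They were -0.45 for fatty acid synthesis (old 0.34), -0.26 for gluconeogenesis and fasting (old 0.10) and -0.17 for glucose handling (old 0.31). Macrophage markers (0.37, old -0.51) and Cirbp (-0.58, old 0.83) were opposite too. PPAR alpha targets (0.35, old 0.07) and acute phase genes (-0.03, old -0.25) had the same sign. The old median of the PPAR alpha targets was -0.12 without 38 h replicate 1. The young median of the acute phase genes lay near that of all genes (-0.015). The difference between ages was not tested for lists. Some of the largest differences of the young array had the same sign in old shams and some the opposite one. Malat1, a noncoding RNA, was lower on the young array (-1.996 ± 0.28) and differed by -0.74 ± 0.22 in old livers, where it passed without 24 h replicate 2 (-1.02 ± 0.13, adjusted p = 0.00373) and without both (adjusted p = 0.0136) and not without 38 h replicate 1 (0.297). Tpbpb was higher (1.52 ± 0.24; old 0.60 ± 0.18) and in old livers passed without 24 h replicate 2 (0.84 ± 0.10, adjusted p = 0.0036) and without both (adjusted p = 0.0172) and not without 38 h replicate 1 (0.385). The urinary protein gene Mup10 was lower (-1.72 ± 0.30; old -0.86 ± 0.23) and in old livers passed without 38 h replicate 1 (-1.45 ± 0.17, adjusted p = 0.00308) and without both (adjusted p = 0.00127) and not without 24 h replicate 2 (0.0733). Cox6b2 was higher (1.66 ± 0.19; old 0.43 ± 0.15). Of opposite sign were Cd36, a fatty acid transporter (2.06 ± 0.40; old -0.42 ± 0.31), the small heat shock protein Hspb1 (1.36 ± 0.26; old -0.26 ± 0.20) and Pde4b, a cyclic AMP phosphodiesterase (-1.84 ± 0.33; old 0.56 ± 0.26). Cox6b2, Cd36, Hspb1 and Pde4b did not pass in old livers in any of the 3 settings. The old minus young difference itself passed for 12 probe sets (0.0343%) and 2 genes (0.0110%), Paxx, a DNA end-joining factor (1.19 ± 0.18, adjusted p = 0.0302), and Car9, a carbonic anhydrase (-1.06 ± 0.15, adjusted p = 0.0264). Each of these calls was lost in 8 of 19 alternatives, with adjusted p up to 0.0978 for Paxx and 0.0877 for Car9. The difference did not pass for Nr1d1 (1.57 ± 0.31, adjusted p = 0.122) or Dbp (-0.87 ± 1.26, adjusted p = 0.864).

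After PH in old mice Dbp rose and Arntl fell at 38 h. Dbp was at 8.91, 9.93 and 9.10 at 38 h, against 9.31, 7.05 and 6.90 at 24 h and 7.98, 6.66 and 7.15 at 48 h, and rose by 1.81 ± 0.47 on the log2 scale (adjusted p = 0.0477). Arntl was at 8.56, 8.13 and 7.72 at 38 h, against 8.20, 9.30 and 9.49 at 24 h and 9.25, 9.55 and 9.42 at 48 h, and fell by 1.06 ± 0.24 on the log2 scale (adjusted p = 0.0295). The groups overlapped for both, through 24 h replicate 1. The Dbp call was lost in 13 of 18 alternatives, 8 of them leaving out 1 array (adjusted p from 0.00303 to 0.169 over all 18), and the Arntl call in 7 (0.00208 to 0.147). Clock fell by 0.76 ± 0.099 on the log2 scale (adjusted p = 0.0058) and Per3 rose by 0.53 ± 0.11 on the log2 scale (adjusted p = 0.021), calls lost in 1 and 4 of 18 alternatives (adjusted p up to 0.0968 and 0.111). Nr1d1 (0.77 ± 0.27, adjusted p = 0.105), Nr1d2 (0.90 ± 0.33, adjusted p = 0.125) and Cry1 (-0.71 ± 0.25, adjusted p = 0.111) did not pass. limma called 1285 probe sets (3.68%) in old PH livers, against 39 without 38 h replicate 1 of that group, and per gene 293 (1.61%) rose and 296 (1.63%) fell. It called 35 probe sets (0.100%) and 17 genes (0.0934%) in young PH livers. There Clock fell by 0.66 ± 0.099 on the log2 scale (adjusted p = 0.0263), a call lost in 8 of 18 alternatives, and Dbp differed by 0.01 ± 0.47. No other clock member passed in young PH livers. Their mean Cry1 was 7.71 at 38 h, against 6.94 at 24 h and 6.91 at 48 h. Their mean Nr1d1 was 8.03, against 9.75 and 8.37 in the same order. Both ran as in the old shams and opposite to the old PH livers. Mean Arntl (8.69, against 9.06 and 9.24), Npas2 and Nfil3 were lowest at 38 h, as in the old PH livers.

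The sham minus PH difference of the contrast in old mice was tested after these values were seen, and passed for 41 probe sets (0.117%) and 25 genes (0.137%). Dbp differed by -5.40 ± 0.95, adjusted p = 0.0186, and the call was lost in 4 of 23 alternatives, among them without 38 h replicate 1 (adjusted p = 0.083) or replicate 2 (0.0585) of the shams. Arntl (2.17 ± 0.49, adjusted p = 0.062), Cry1 (2.0004 ± 0.45, adjusted p = 0.0617), Nr1d1 (-1.75 ± 0.37, adjusted p = 0.0565) and Nr1d2 (-1.96 ± 0.44, adjusted p = 0.0617) did not pass. Lonrf3 (1.18 ± 0.20, adjusted p = 0.0186), Abtb2 (2.101 ± 0.36, adjusted p = 0.0186) and the sugar transporter Slc50a1 (1.01 ± 0.17, adjusted p = 0.0186) passed, with the calls lost in 3, 3 and 2 of 23 alternatives in that order (adjusted p up to 0.246, 0.21 and 0.21). So did Nmrk1, a kinase of nicotinamide riboside (1.85 ± 0.36, adjusted p = 0.0384), which was at 8.25 and 8.18 at 38 h, against 7.63 and 7.42 at 24 h and 7.16 and 7.36 at 48 h in the old shams, with the call lost in 10 of 23 alternatives.

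**Figure D5:**
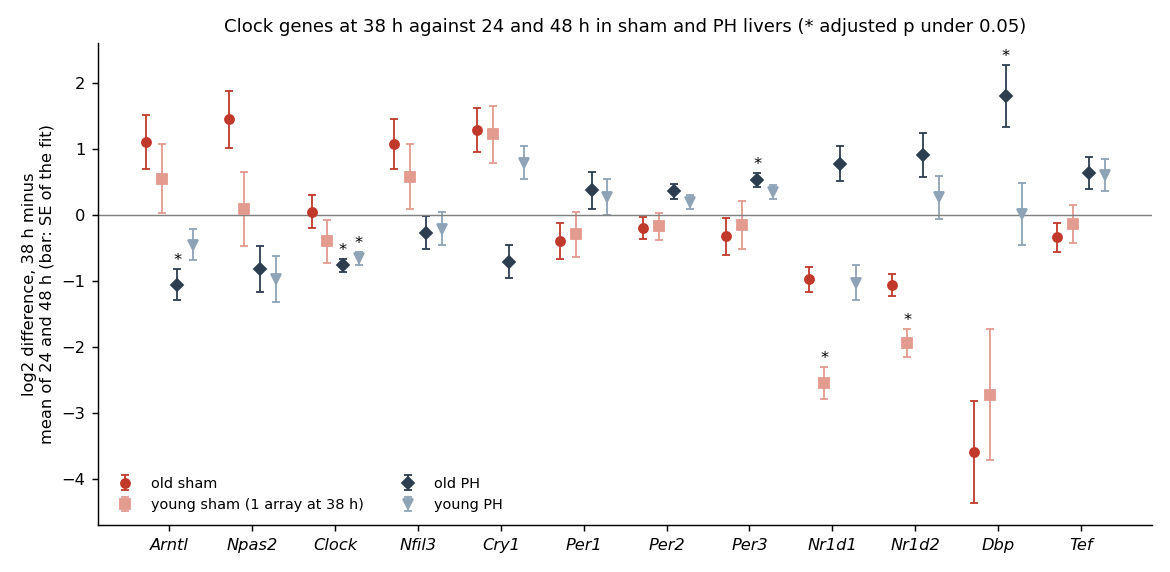
Log2 difference of 38 h minus the mean of 24 and 48 h for 12 clock genes in old sham, young sham, old PH and young PH livers (bar: SE of the limma fit; asterisk: adjusted p under 0.05). Dbp lies at -3.59 in old shams, -2.72 in young shams and 1.81 in old PH livers.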

How the data were processed

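The authors deposited log2 signals for 45101 probe sets of an Affymetrix mouse array on 35 arrays, made with RMA per the submitters' processing notes. For RMA, version and settings were not given in the sources used here, and depth has no meaning for arrays, whose number limits the precision. Of these, 34945 probe sets carry 1 gene symbol in the platform table, 932 carry several and 9160 (controls aside) are not listed, and these were left out of the tests. A group-means model was fitted to the 17 unresected arrays with limma 3.58.1 in R 4.3.3, adjusted over all 34945 probe sets at a threshold of 0.05. The PH contrasts were fitted on the 18 PH arrays and the sham minus PH difference on all 35. A gene stands for its brightest probe set (18193 genes). The fit was tested on simulated data. Promoter windows came from RefSeq, and figures were drawn with matplotlib 3.10.9. The old shams' same replicate numbers deviated together with r of -0.14 (38 and 24 h), 0.12 (38 and 48 h) and 0.08 (48 and 24 h), so they were not treated as pairs. Named by rule were all clock members, the 10 largest rises and falls called without overlap, up to 4 called members of each other list or else its 2 brightest, and the 5 largest called rises and falls of each other contrast. The members, lists and named genes were chosen with earlier results of these data known.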

Additional observations from a re-analysis of the deposited data

Results flagged for a closer look

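Among the 4 old sham arrays at 24 and 48 h, 8 of 92 genes examined had 1 array far from the others by Dixon's test. Chance gives this in about 1 of 20 groups. Some of the 92 genes, Adipoq and Dmbt1 among them, were chosen after their values were seen to set 1 array apart. The count therefore cannot be compared with that share. Replicate 2 at 24 h was such an array for Dmbt1 (10.88), Adipoq (8.48), Cd68 (8.95), Junb (8.20), Ppard (7.65) and Csnk1e (7.57). Replicate 2 at 48 h was such an array for Ppp1r3b (10.95) and Atp2a1 (7.68).

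The 38 h contrast differed between old sham and old PH livers, by the test of the difference, for Dbp (-5.40), Abtb2 (2.101), Nmrk1 (1.85), Lgalsl (1.44), Lonrf3 (1.18), Ednrb (1.09), Mrtfb (1.04), Slc50a1 (1.01), Pnldc1 (-0.95), Ube2d1 (0.92) and Arhgef4 (-0.75), each the sham minus PH log2 difference. Between old and young shams it differed for Paxx (1.19) and Car9 (-1.06), each the old minus young log2 difference.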

How the results depend on the processing

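Counts are probe sets called by limma. For old shams at 38 h against 24 and 48 h (1), they were 3 with all 35 arrays, 0 with only the arrays compared or with 24 and 48 h as 1 group, 2 with a replicate block or without dim probe sets, 6 after quantile normalization (4 higher, 2 lower), 9 with a variance trend and robust prior and 12 with array weights. With settings added after the data were seen, they were 11 on the 11 sham arrays and 400 without both arrays with markers of other tissues. Leaving out each array gave 2 to 516. Against 24 h alone (4) they were 2 with all 35 arrays or 1 probe set per gene, 0 with only the arrays compared, 189 without both and 23 to 205 leaving out each array. Against 48 h alone (0) they were 1, 247 without both and 0 to 90. Between 48 and 24 h (0) they were 30 without both and 0 to 234. The young sham count (387) was 190 with all 35 arrays, 254 with a replicate block, 90 with 1 probe set per gene, 606 after quantile normalization, 974 with array weights and 51 to 144 leaving out each array. The old minus young count (12) was 6 with only the arrays compared or a replicate block, 0 with 1 probe set per gene, 19 after quantile normalization and 3 to 140. The old PH count (1285) was 2850 with all 35 arrays, 0 with only the arrays compared, 498 with 1 probe set per gene, 747 without dim probe sets, 5994 with array weights and 39 to 2154, and centring the arrays gave 243 higher and 915 lower against 520 and 765. The young PH count (35) was 260, 677 with only the arrays compared, 0 with a replicate block, 15 with 1 probe set per gene, 21 after quantile normalization, 14 with a trend and robust prior, 2280 with array weights and 0 to 59. The sham minus PH count (41) was 0 with only the arrays compared, 78 with arrays centred (64 higher, 14 lower against 23 and 18), 64 with array weights and 10 to 213. The causes were not tested. Arntl, Npas2, Nfil3, Cry1, Nr1d1, Nr1d2 and Dbp kept their direction in each setting run. The polyamine and one carbon list's median (0.11) lay between -0.0040 (without 38 h replicate 1) and 0.14 leaving out each array. Of the other list values, 594 stayed within the list's spread between replicates and 35 moved further. A median smaller than that spread could change sign and still be counted so. That of the stellate cell and matrix list was -0.04, and 0.13 without 24 h replicate 2.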

Other observations

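Dmbt1, a mucosal scavenger glycoprotein, was at 10.88 in old sham 24 h replicate 2, with 5.52 to 5.90 in the other old shams. Socs2, an inhibitor of growth hormone signalling, was at 10.03 and 8.40 in old shams at 38 h, against 8.45 and 8.41 at 24 h and 7.30 and 7.48 at 48 h, so that 1 array, the one with high muscle genes, stood highest.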
